A study of Mus musculus with 12 samples.

Results

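Matricellular proteins are secreted into the extracellular matrix, where they act on cells and on matrix assembly more than as structural scaffold. The 10 genes described here are 9 matricellular genes (Thbs1, Thbs2, Spp1, Tnc, Postn, Sparc, Ctgf, Cyr61 and Mgp) and the fibronectin gene Fn1, listed by name, out of 31870 gene symbols or identifiers on the array. Ctgf and Cyr61 are the older symbols, as in the scanner files, of Ccn2 and Ccn1. Liver RNA was measured in 12 mice, 1 mouse per one-colour array, in 4 groups of 3 mice. FSAP-/- mice, called FSAP-deficient here, had surgical bile duct ligation (BDL) in the first group and a sham operation in the second. Their littermates of genotype FSAP+/+ (WT) had BDL in the third group and a sham operation in the fourth. FSAP, factor VII activating protease, is a circulating serine protease made in the liver and encoded by Habp2. All mice, per the labels, came from heterozygous crosses after backcrossing toward BalbC as far as generation F3, were 20 to 30 weeks old, had isoflurane anaesthesia, and gave their livers 2 weeks after surgery. Backcrossing to F3 leaves other strain background in the mice, and the labels give neither their sex nor the deleted part of Habp2.

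BDL blocks the outflow of bile, and the liver responds with bile duct growth, inflammation and scar formation around the portal tracts. In that scar, stellate cells and portal fibroblasts turn into myofibroblasts, which secrete collagen together with matricellular proteins. These proteins bind integrins, syndecans and other surface receptors, and several hold or release growth factors, chiefly TGF-beta. Fibronectin has a soluble plasma form made by hepatocytes and a cellular form made by stromal cells, both from Fn1, and they were not measured separately here.

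A level is log2 of the processed signal minus the array's 75th percentile on that scale, so 0 is the 75th percentile and 1 unit is a doubling. Levels of different genes come from different probes and are not set against each other. Changes were tested in 1 limma model over all 12 arrays, and "rose" or "fell" means a Benjamini-Hochberg adjusted p, over all 19531 tested genes, below 0.05. Habp2 averaged -7.04 ± 0.13 in FSAP-deficient BDL livers against 5.05 ± 0.09 in WT BDL livers, and -5.64 ± 1.89 in FSAP-deficient sham livers against 5.45 ± 0.07 in WT sham livers (SD, n = 3 each). It was well above background on 1 of the 6 FSAP-deficient arrays, replicate 1 of the sham group, which was alone on its slide (slide 4). Slide 3 held all 3 FSAP-deficient BDL arrays and FSAP-deficient sham replicate 3. Slide 2 held WT BDL replicates 2 and 3 and FSAP-deficient sham replicate 2. Slide 1 held WT BDL replicate 1 and all 3 WT sham arrays. No slide held both genotypes of 1 surgery. Values within slide 3 therefore set 3 BDL arrays against 1 sham array and those within slide 1 set 1 BDL array, WT replicate 1, against 3 sham arrays, and the spread behind their p comes from the other arm alone. Y-linked genes gave signal on 2 of 3 FSAP-deficient BDL arrays, 1 of 3 FSAP-deficient sham arrays and none of the 6 WT arrays (0 of 6). Between 54.5% and 62.3% of the spots of an array were well above background.

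After BDL, 8 of the 10 genes rose in FSAP-deficient livers (Thbs1, Thbs2, Spp1, Postn, Sparc, Ctgf, Cyr61 and Mgp), where 16.2% of all tested genes rose. In WT livers 5 of the 10 rose (Thbs1, Spp1, Sparc, Ctgf and Mgp), where 15.2% of all tested genes rose. None of the 10 fell, where 22.8% of all tested genes did in FSAP-deficient and 17.7% in WT livers. Every BDL array lay above every sham array for 8 of the 10 in FSAP-deficient livers and for 7 in WT livers, as for 18.9% of all tested genes in FSAP-deficient and 24.2% in WT livers. Fn1 passed the test in neither, and Tnc was too dim to be tested. The median log2 change of the 9 tested genes was 2.92 in FSAP-deficient livers and 1.5 in WT livers, against -0.16 in FSAP-deficient and -0.03 in WT livers for all tested genes. Genes were tested where 3 or more of the 12 arrays were well above background. Thbs2 reached this through BDL arrays alone and Thbs1 almost so, so these 2 counts and medians describe the genes that passed and are no support by themselves. In bulk liver RNA, more cells of a type and more RNA per cell cannot be told apart.

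**Figure D1:**
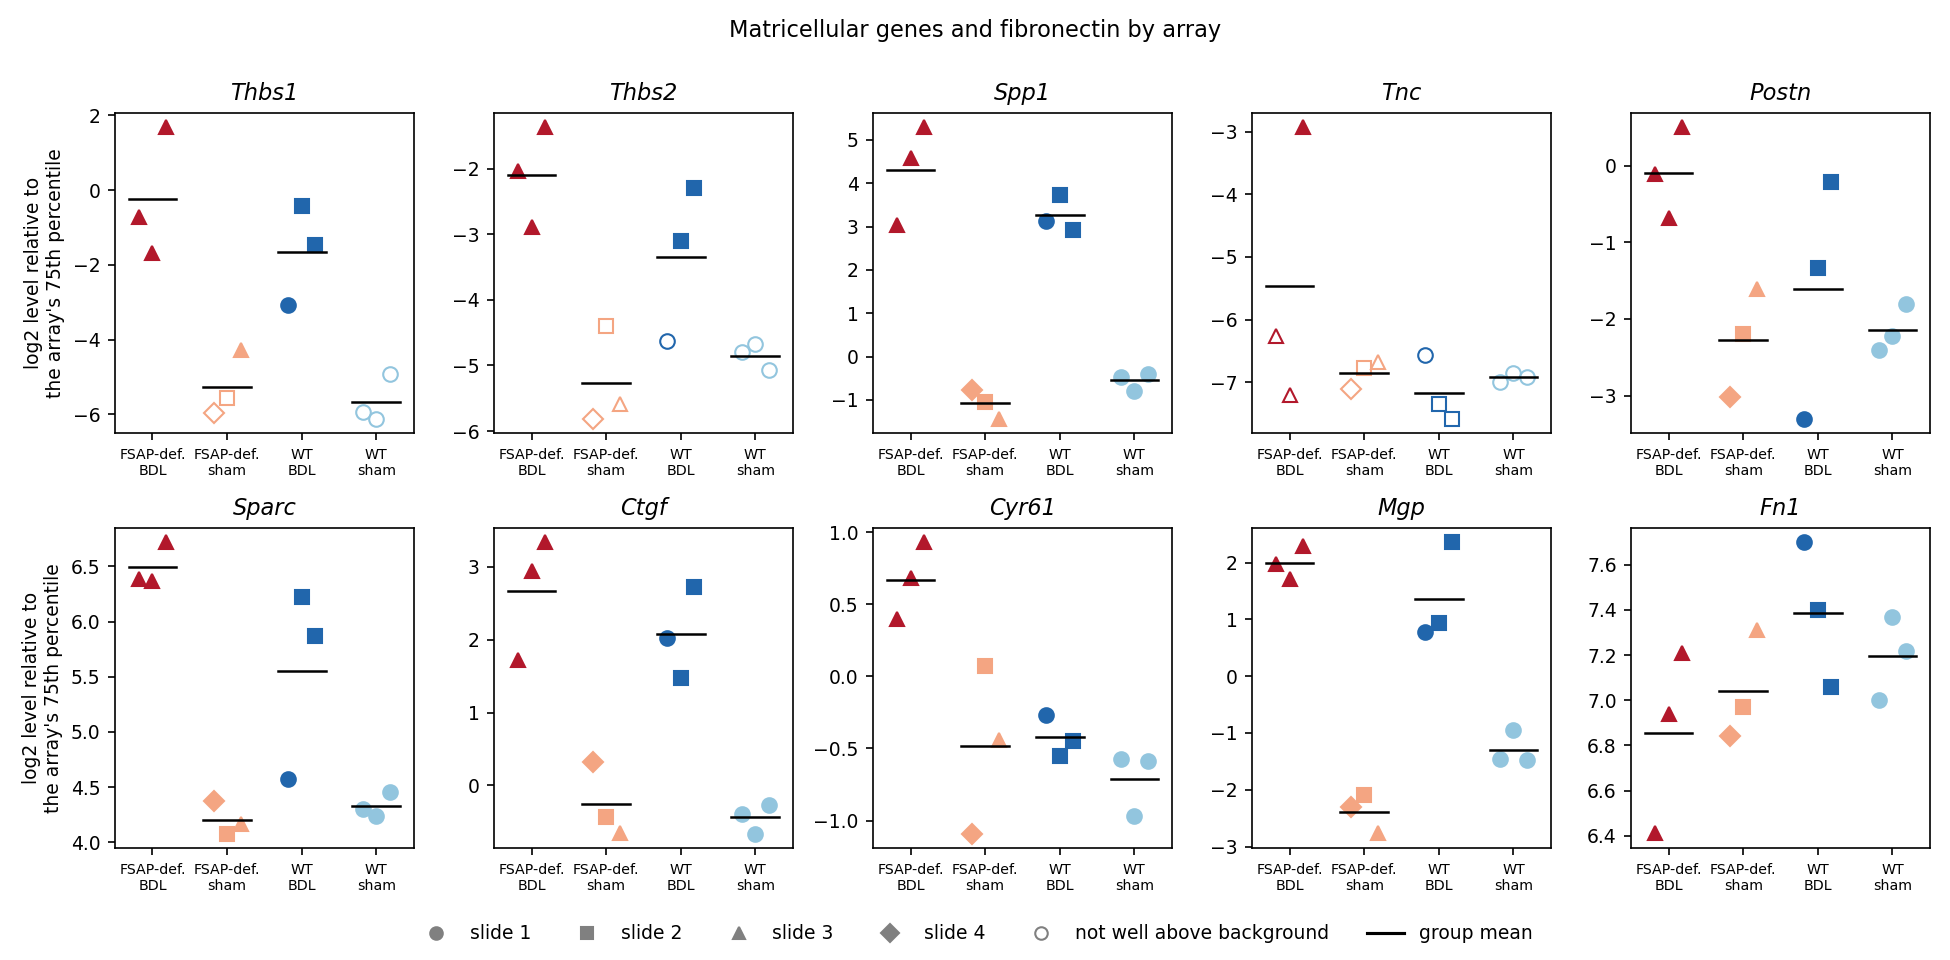
Level of each gene on each of the 12 arrays (log2 relative to the array's 75th percentile), by group, with replicates 1 to 3 from left to right, the marker's shape giving the slide and open markers a probe not well above background. Spp1, Ctgf and Mgp separate every BDL array from every sham array, while Fn1 overlaps in all 4 groups.

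Thbs1 encodes thrombospondin-1, a glycoprotein of platelets and stromal cells that can activate latent TGF-beta (probe at chr2:117952585-117952644, mm9). Its levels were -0.73, -1.69 and 1.68 in FSAP-deficient BDL livers, against -5.97, -5.57 and -4.27 in FSAP-deficient sham livers. In WT livers they were -3.07, -0.43 and -1.47 after BDL against -5.94, -6.11 and -4.91 after sham. Every BDL array lay above every sham array, and the BDL arrays were spread widely in each genotype. Thbs1 rose in FSAP-deficient livers by a measured 32.4-fold (log2 change 5.02, SE 0.87, limma adjusted p = 0.00125), a size that leans on sham signals of which 1 of 3 was well above background. With normexp background correction, which lifts dim signals, the change was 2.71 in FSAP-deficient and 1.84 in WT livers, and both passed. In WT livers, where no sham array was, the rise was at least 9.75-fold (adjusted p = 0.00538). For such a bound, the sham signal of each array was raised to that array's dimmest probe well above background, where it lay below that, before the means were compared. Within slide 3 the FSAP-deficient change was 4.02, and within slide 1 the WT change was 2.58. With slide as a block the changes rest on the same arrays and were the same values, with another estimate of the spread. The FSAP-deficient change passed with that block (limma adjusted p = 0.0441) and the WT change did not (limma adjusted p = 0.169). The block is thus no second check of the size, and in each genotype the call differed between the block and the single slide.

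Thbs2 encodes thrombospondin-2, a relative that shapes collagen fibrils and inhibits vessel growth (chr17:14804526-14805789, a span that holds an intron). Its levels were -2.04, -2.89 and -1.37 in FSAP-deficient BDL livers, against -5.81, -4.40 and -5.59 in FSAP-deficient sham livers. The WT levels were -4.63, -3.11 and -2.30 after BDL against -4.80, -4.68 and -5.07 after sham. No sham array of either genotype was well above background at this probe, nor was WT BDL replicate 1. Thbs2 rose at least 6.55-fold in FSAP-deficient livers (adjusted p = 0.00171). In WT livers 2 of 3 BDL arrays were well above background. With the sham signals raised as for Thbs1, Thbs2 measured 2.72-fold higher after BDL there. This is no lower bound, since WT BDL replicate 1, itself not well above background, is part of the BDL mean. The fitted WT difference of 1.5 (SE 0.58) missed the test (adjusted p = 0.0697). With normexp the fitted differences were 1.14 in FSAP-deficient livers, which passed, and 0.51 in WT livers, which did not. Without WT BDL replicate 1 the WT difference was 2.15 and passed (adjusted p = 0.0104), and within slide 1, whose only BDL array is that replicate, it was 0.22.

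Spp1 encodes osteopontin, a phosphoprotein of bile duct cells and macrophages that binds integrins and CD44 (chr5:104868502-104868561). It had the largest fold change of the genes measurable on all arrays. Its levels were 3.03, 4.57 and 5.29 in FSAP-deficient BDL livers, against -0.76, -1.05 and -1.43 in FSAP-deficient sham livers. WT livers had levels of 3.12, 3.73 and 2.93 after BDL against -0.46, -0.79 and -0.40 after sham. All 6 BDL arrays lay far above all 6 sham arrays. Spp1 rose 41.7-fold in FSAP-deficient livers (log2 change 5.38, SE 0.47, adjusted p = 2.54e-05) and 13.99-fold in WT livers (3.81, adjusted p = 0.000195). Within slide 3 the change was 5.73 and within slide 1 it was 3.67.

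The window of 250 bases before the transcription start of Spp1 and of Cyr61 is shown because osteopontin is a classic target of RUNX factors and Cyr61 of YAP acting through TEAD factors. The sequences are RefSeq's on GRCm38.p6, for chr5:104434861-104435110 (plus strand, the upstream of 2 Spp1 starts in the table) and chr3:145649986-145650235 (minus strand), and capitals mark the motifs found.
Spp1: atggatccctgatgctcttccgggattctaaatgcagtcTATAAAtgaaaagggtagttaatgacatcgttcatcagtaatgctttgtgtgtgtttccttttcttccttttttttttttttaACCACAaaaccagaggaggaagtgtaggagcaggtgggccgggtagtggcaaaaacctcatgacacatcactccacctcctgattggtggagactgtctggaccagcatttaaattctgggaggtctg
Cyr61: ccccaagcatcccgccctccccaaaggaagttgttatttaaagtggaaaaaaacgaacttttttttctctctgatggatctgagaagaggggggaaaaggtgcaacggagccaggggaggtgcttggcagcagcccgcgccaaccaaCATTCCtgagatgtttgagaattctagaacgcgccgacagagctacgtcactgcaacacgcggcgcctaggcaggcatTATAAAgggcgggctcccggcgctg
The letters searched on both strands were TGTGGT for RUNX, GGAATG for TEAD, TGANTCA for AP-1 and TATAAA for a TATA box. Spp1 has a RUNX match on the minus strand, written ACCACA here, 128 bases before the start, and TATAAA 211 bases before it. Cyr61 has a TEAD match, written CATTCC here, 103 bases before the start, and TATAAA 25 bases before it. Among all 32851 mouse windows of this length, 14% hold the RUNX letters, 12.6% the TEAD letters, 6.7% the AP-1 letters and 12.4% the TATA letters. The table held 9 windows for 6 of the 10 genes (Thbs2, Spp1, Tnc, Postn, Sparc and Cyr61), of which 1 held the RUNX letters, 1 the TEAD letters, 0 the AP-1 letters and 6 the TATA letters. The TATA letters lay 26 bases before a Postn start, 126 before the Thbs2 start, and 205 and 126 before the Tnc starts. The 2 Tnc windows overlap and share their match, so the 6 windows are not separate matches. Whether any match acts was not tested. No marked motif overlaps another.

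Tnc encodes tenascin-C, a large glycoprotein that is scarce in adult tissue and made in wounds and scars. It was measured by 2 probes, both shown because they disagreed on which array carried signal. The first covers chr4:63674248-63675011 (across an intron) and begins at base 2324 of the transcript, the second covers chr4:63643728-63643787 and begins at base 4602, both on the minus strand of mm9.
Tnc, first probe: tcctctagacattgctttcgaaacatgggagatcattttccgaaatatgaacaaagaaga
Tnc, second probe: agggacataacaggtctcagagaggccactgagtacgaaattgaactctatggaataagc
The first probe gave processed signals of 10.05, 4.52 and 129.8 in FSAP-deficient BDL livers and was well above background on replicate 3 alone. The second gave 39.7, 4.36 and 16.6 on the same arrays and was well above background on replicate 1 alone. On the other 9 arrays the first probe reached at most 6.29 and the second at most 5.92, and neither was well above background. Tnc signal was thus seen on 2 of 3 FSAP-deficient BDL arrays, by a different probe on each, and on none of the others. It passed the filter through neither probe, no fold is given, and whether the groups differ cannot be said from these values.

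Postn encodes periostin, which binds collagen and helps its cross-linking (chr3:54194840-54194899). Its levels were -0.11, -0.68 and 0.50 in FSAP-deficient BDL livers, against -3.02, -2.19 and -1.61 in FSAP-deficient sham livers. WT levels stood at -3.30, -1.33 and -0.21 after BDL against -2.41, -2.22 and -1.81 after sham. The FSAP-deficient groups did not overlap, whereas the lowest WT BDL array lay below every WT sham array. Postn rose 4.52-fold in FSAP-deficient livers (log2 change 2.18, SE 0.66, adjusted p = 0.0235). This call is the least stable of the 8: the change was 1.81 without FSAP-deficient sham replicate 1, 2.22 without sham replicate 2, 2.18 without BDL replicate 1 and 1.88 without BDL replicate 3, each with an adjusted p above 0.05 (0.0512 to 0.0811). Within slide 3 it was 1.51 (adjusted p = 0.153). In WT livers the change was 0.53 (adjusted p = 0.577). It was 1.38 without WT BDL replicate 1, and within slide 1, where WT BDL replicate 1 is the only BDL array, it was -1.16 (adjusted p = 0.0471), so that p speaks of 1 array and not of WT livers.

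Sparc encodes osteonectin, a collagen-binding glycoprotein of fibroblasts and endothelium (chr11:55208939-55208998). Its levels were 6.39, 6.37 and 6.72 in FSAP-deficient BDL livers, against 4.37, 4.08 and 4.17 in FSAP-deficient sham livers. The WT values were 4.57, 6.22 and 5.87 after BDL against 4.30, 4.24 and 4.46 after sham. The FSAP-deficient BDL arrays lay close together, and WT BDL replicate 1 lay just above the sham arrays. Sparc rose 4.88-fold in FSAP-deficient livers (log2 change 2.29, SE 0.34, adjusted p = 0.00049) and 2.33-fold in WT livers (1.22, adjusted p = 0.0182). A second probe (chr11:55208003-55208061) gave 2.68 in FSAP-deficient livers (adjusted p = 0.000638) and 1.48 in WT livers (adjusted p = 0.0188). The WT call rested on a thin margin. Within slide 1 the change was 0.24 (adjusted p = 0.343), without WT BDL replicate 1 it was 1.71, and leaving out WT sham replicate 1 or 2 or WT BDL replicate 2 or 3 gave 1.2, 1.17, 0.89 and 1.06 in that order, with adjusted p from 0.0522 to 0.0687.

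Ctgf and Cyr61 encode CCN proteins, which bind integrins and heparan sulphate and are standard YAP targets. Ctgf (chr10:24318281-24318340) had levels of 1.72, 2.94 and 3.34 in FSAP-deficient BDL livers, against 0.32, -0.44 and -0.65 in FSAP-deficient sham livers. WT levels were 2.02, 1.48 and 2.73 after BDL against -0.39, -0.66 and -0.27 after sham. All 6 BDL arrays lay above all 6 sham arrays. Ctgf rose 7.57-fold in FSAP-deficient livers (log2 change 2.92, SE 0.43, adjusted p = 0.000483) and 5.72-fold in WT livers (2.52, adjusted p = 0.00143), with 3.31 within slide 3 (adjusted p = 0.0566) and 2.46 within slide 1.

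Cyr61, which in mouse liver is known to drive myofibroblasts into senescence, moved less (chr3:145310187-145310246, and its promoter window is the second printed above). Its levels were 0.40, 0.68 and 0.93 in FSAP-deficient BDL livers, against -1.09, 0.07 and -0.44 in FSAP-deficient sham livers. WT livers stood at -0.27, -0.55 and -0.45 after BDL against -0.57, -0.97 and -0.59 after sham. BDL arrays lay above sham arrays in each genotype, by a small margin in WT. Cyr61 rose 2.23-fold in FSAP-deficient livers (log2 change 1.16, SE 0.27, adjusted p = 0.00612), with 1.11 within slide 3 (adjusted p = 0.13). The WT change was 0.29 (95% interval -0.30 to 0.87, adjusted p = 0.446).

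Mgp encodes matrix Gla protein, an inhibitor of calcification that also binds bone morphogenetic proteins (chr6:136821125-136821184). Its levels were 1.97, 1.71 and 2.30 in FSAP-deficient BDL livers, against -2.31, -2.10 and -2.77 in FSAP-deficient sham livers. In WT livers they were 0.78, 0.94 and 2.36 after BDL against -1.46, -0.95 and -1.47 after sham. Mgp rose 20.9-fold in FSAP-deficient livers (log2 change 4.39, SE 0.38, adjusted p = 2.43e-05) and 6.29-fold in WT livers (2.65, adjusted p = 0.000479). The change was 4.77 within slide 3 and 2.08 within slide 1.

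Fn1, the fibronectin gene (chr1:71632116-71632175), had levels of 6.41, 6.94 and 7.21 in FSAP-deficient BDL livers, against 6.84, 6.97 and 7.31 in FSAP-deficient sham livers. In WT livers they were 7.70, 7.40 and 7.06 after BDL against 7.0, 7.37 and 7.22 after sham. The 4 groups overlapped. The change was -0.19 in FSAP-deficient livers (95% interval -0.71 to 0.34, adjusted p = 0.571) and 0.19 in WT livers (-0.33 to 0.71, adjusted p = 0.58), so a doubling lies outside both intervals. Quantile normalization turned the FSAP-deficient value to 0.35, also without passing. Over the alternatives the WT value ran from 0.03 to 0.53 and passed under none (lowest limma adjusted p = 0.0808).

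**Figure D2:**
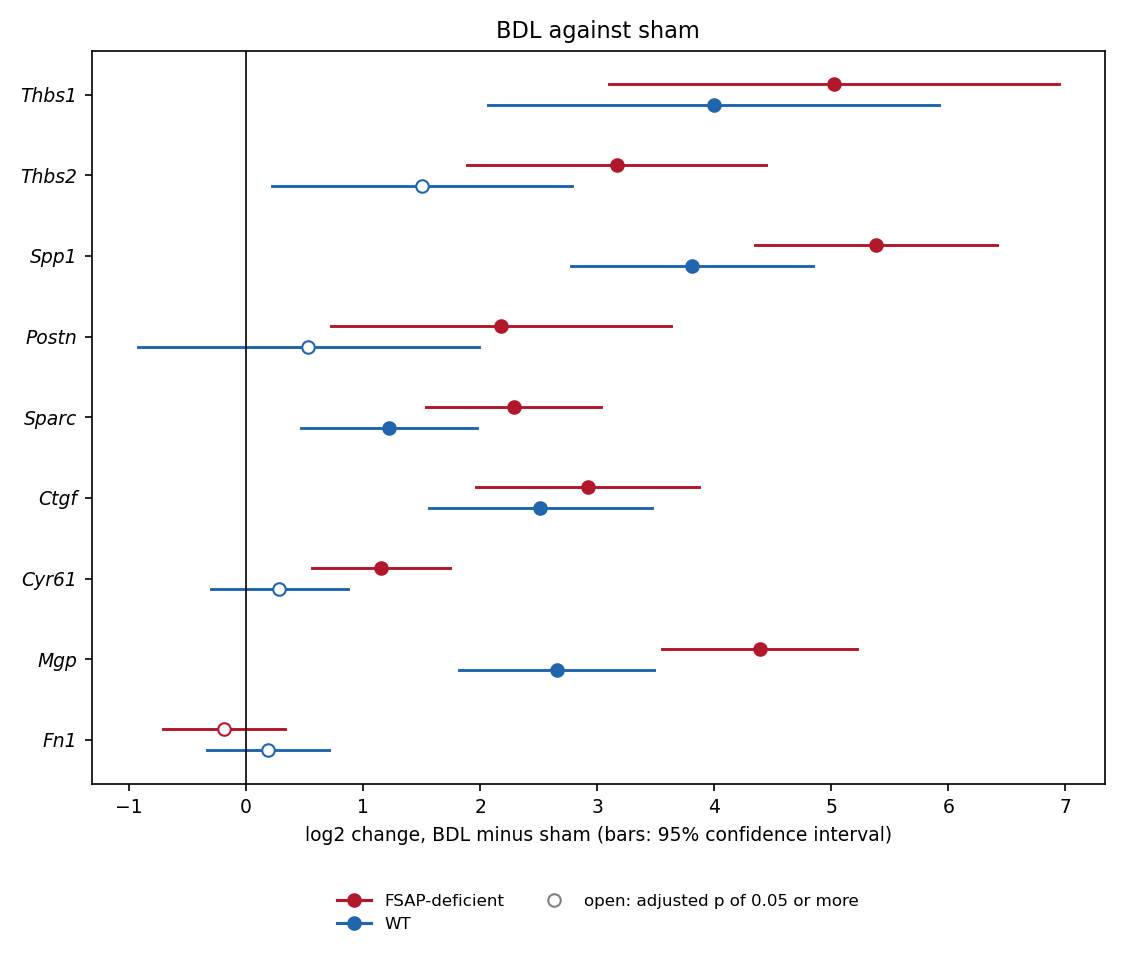
Log2 change, BDL minus sham, of the 9 tested genes in FSAP-deficient (red) and WT (blue) livers, with 95% confidence intervals from the limma model of 12 arrays and filled points for an adjusted p below 0.05. The point for FSAP-deficient livers is to the right of the WT point for every gene but Fn1, and the intervals of most pairs overlap.

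The BDL livers of 1 group were not alike. FSAP-deficient BDL replicate 3 had the highest level of its group for 10 of 10 genes, under scaling by the 75th percentile, by the median and by quantiles, with Tnc read by its first probe (by the second, replicate 1 was highest). This array was the highest of its group for 37.1% of all tested genes. WT BDL replicate 1 had the lowest level of its group for 5 of 10 (Thbs1, Thbs2, Postn, Sparc and Mgp) under each of these scalings, and the highest for Cyr61 and Fn1. It was the lowest of its group for 34.2% of all tested genes, and in WT BDL livers no array was highest or lowest for most of the 10 genes, with 3, 3 and 4 highest and 5, 2 and 3 lowest by replicate. The summed linear level of 10 stellate cell and myofibroblast markers, in units of the array's 75th percentile, was 49.2, 36.1 and 101 in FSAP-deficient BDL livers and 11.9, 27.8 and 29.3 in WT BDL livers. The sham sums were 5.06, 6.20 and 5.48 in FSAP-deficient livers and 6.20, 7.79 and 6.42 in WT livers. In BDL livers this linear sum rests mostly on Col3a1, Col1a1 and Tagln, the brightest markers. The median level of the 10 markers was -0.32, -0.11 and 0.37 in FSAP-deficient and -1.25, -0.29 and 0.05 in WT BDL livers. The replicate that was high for the 10 genes was thus also highest in this sum and median. The replicate that was low for 5 of them was lowest in both. This was not particular to these markers. FSAP-deficient BDL replicate 3 also had the highest macrophage sum (77.8) and the lowest hepatocyte sum (1280) of its group. The hepatocyte sum rests mostly on Alb and Serpina1a, the brightest markers. The median hepatocyte marker level was 6.25, 6.26 and 6.25 in FSAP-deficient BDL livers, so by the median replicate 3 did not stand apart. WT BDL replicate 1 had the highest hepatocyte sum (2410) of its group, and its median level was 7, against 6.49 in replicates 2 and 3. The cholangiocyte and mesothelium sums were instead highest in FSAP-deficient BDL replicate 2. Without FSAP-deficient BDL replicate 3 the change was 4.06 for Thbs1, 4.89 for Spp1 and 4.24 for Mgp in FSAP-deficient livers, and 7 of the 8 calls remained (not Postn). The same 7 remained without FSAP-deficient sham replicate 1, the array alone on slide 4. Without WT BDL replicate 1, 6 genes rose in WT livers, Thbs2 with the 5.

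**Figure D3:**
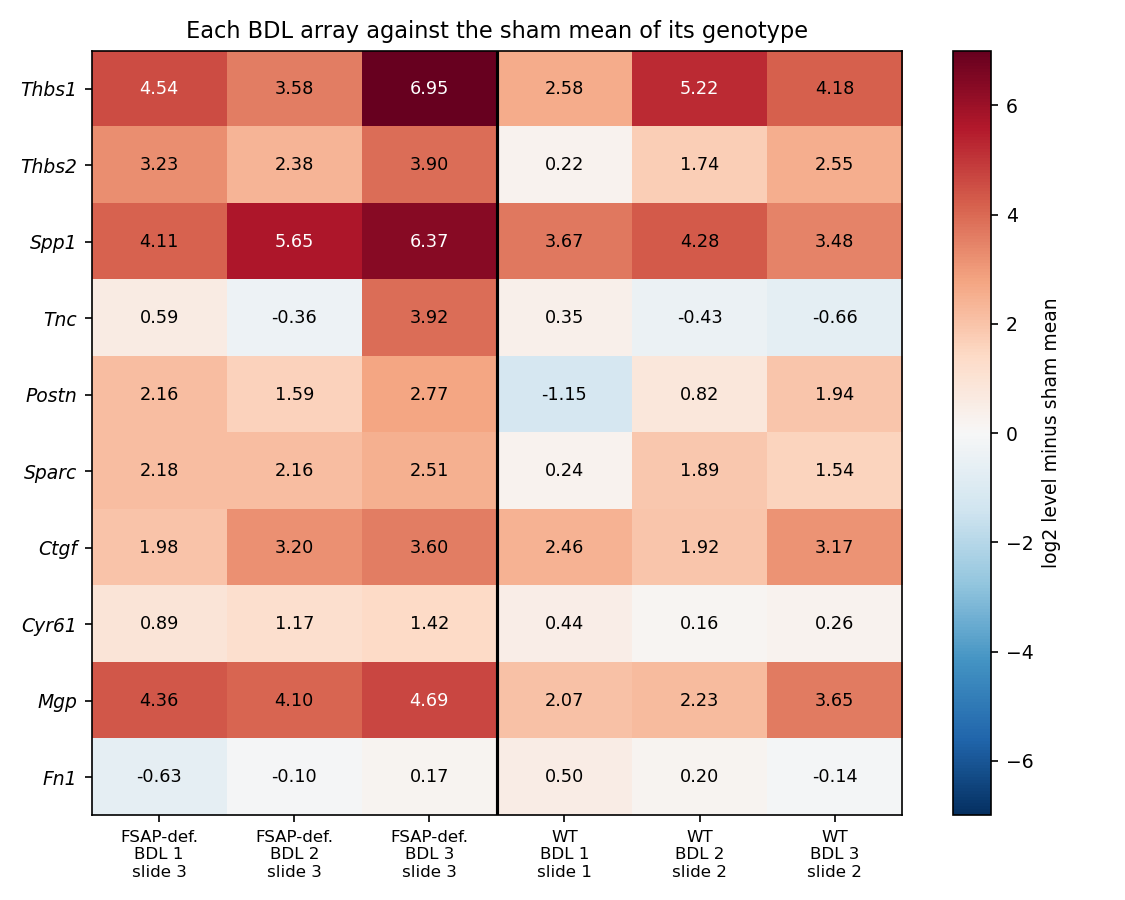
Log2 level of each gene on each BDL array minus the mean of the 3 sham arrays of the same genotype, with the slide under each array. Replicate 3 of the FSAP-deficient livers is highest of its 3 in every row (Tnc by its first probe), and WT replicate 1 is at -1.15 for Postn and 0.24 for Sparc.

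Between genotypes, none of the 10 genes passed the test, after BDL or after sham (limma, 0 called in each), where 0.215% of all tested genes passed after BDL and 0.0154% after sham. After BDL, 8 of the 9 tested genes had a higher mean in FSAP-deficient livers and Fn1 a lower one. The share of all tested genes with a higher mean was not counted, and their median difference was -0.03. The 8 genes share the high array FSAP-deficient BDL replicate 3. At an unadjusted p below 0.05 there were 5 (Spp1, Postn, Sparc, Cyr61 and Fn1), where 12.9% of all tested genes had such a p. Cyr61 came nearest to the threshold, with 0.67 ± 0.27 in FSAP-deficient BDL livers and -0.42 ± 0.14 in WT BDL livers (SD, n = 3 each), a difference of 1.09 (SE 0.27, adjusted p = 0.123). Sparc averaged 6.49 ± 0.20 in FSAP-deficient BDL livers and 5.55 ± 0.87 in WT BDL livers, a difference of 0.94 (SE 0.34, adjusted p = 0.278). Only in these 2 genes were all FSAP-deficient BDL arrays above all WT BDL arrays, as in 6.58% of all tested genes. The Sparc difference was 0.45 without WT BDL replicate 1.

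The other differences after BDL were 1.52 for Postn (95% interval 0.06 to 2.97, adjusted p = 0.369), 1.41 for Thbs1 (-0.51 to 3.33, adjusted p = 0.534), 1.25 for Thbs2 (-0.04 to 2.53, adjusted p = 0.396) and 1.04 for Spp1 (0.01 to 2.08, adjusted p = 0.384). They were 0.63 for Mgp (-0.20 to 1.47, adjusted p = 0.517), 0.59 for Ctgf (-0.36 to 1.54, adjusted p = 0.609) and -0.53 for Fn1 (-1.06 to -0.01, adjusted p = 0.378). Intervals this wide leave room for differences of several fold in Thbs1, Thbs2 and Postn. Without WT BDL replicate 1 the differences were 0.67 for Postn, 0.70 for Thbs1, 0.60 for Thbs2 and 0.34 for Mgp. Without FSAP-deficient BDL replicate 3 they were 0.45 for Thbs1, 0.55 for Spp1 and 0.25 for Ctgf. The 3 FSAP-deficient BDL arrays shared slide 3 while the WT BDL arrays lay on slides 1 and 2, and within a slide genotype could not be compared. With slide as a block, the groups are linked only through FSAP-deficient sham replicates 2 and 3, on slides 2 and 3. The differences were then 1.68 for Cyr61, 1.35 for Spp1, 0.35 for Sparc, 0.09 for Postn and -0.59 for Thbs1, and none passed. The part of the slides and of the unequal Y-linked signal in these differences cannot be told apart from genotype in full. Leaving out the arrays with Y-linked signal left FSAP-deficient BDL replicate 3 alone in its group, with its spread assumed like that of the other groups. Cyr61 then differed by 1.36, Spp1 by 2.04, Thbs1 by 3.33, Thbs2 by 1.98 and Ctgf by 1.26. These values rest on the array that was the highest of its group for each of these genes.

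In sham livers Mgp stood at -2.40 ± 0.34 in FSAP-deficient and -1.29 ± 0.30 in WT livers (SD, n = 3 each), a difference of -1.10 (SE 0.38, adjusted p = 0.444). All 3 FSAP-deficient sham arrays lay below all 3 WT sham arrays, as in 7.26% of all tested genes. No other of the 9 tested genes had an unadjusted p below 0.05 there, where 7.87% of all tested genes did, and the other differences of genes well above background on all sham arrays lay between -0.53 for Spp1 and 0.22 for Cyr61. With slide as a block the sham differences were -2.58 for Postn, -1.73 for Sparc, -1.67 for Mgp, -0.71 for Spp1 and 1.01 for Cyr61, and none passed. No slide held sham livers of both genotypes, so that block links them through the WT BDL arrays of slides 1 and 2. The blocked values rest on FSAP-deficient sham replicate 2 alone and, within slide 1, on WT BDL replicate 1 alone.

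The interaction asks whether BDL changed a gene by a different amount in the 2 genotypes. None of the 9 tested genes passed (limma, 0 called), where 0.0102% of all tested genes did. At an unadjusted p below 0.05 there were 4, Mgp at 1.73 (SE 0.53, adjusted p = 0.196), Spp1 at 1.58 (adjusted p = 0.332), Sparc at 1.07 (adjusted p = 0.362) and Cyr61 at 0.87 (adjusted p = 0.346), where 13.7% of all tested genes had such a p. The Sparc value was 0.57 without WT BDL replicate 1. With slide as a block Sparc was 2.08 and Mgp 2.69, without passing. That block sets the slide 3 change against the slide 1 change. Its values therefore rest on WT BDL replicate 1 as the only WT BDL array and on FSAP-deficient sham replicate 3 as the only such sham array. The larger number of calls in FSAP-deficient livers, 8 against 5 in WT livers, is therefore no shown difference between the genotypes. Without the 3 arrays with Y-linked signal, the Spp1 interaction was 2.73. That setting left FSAP-deficient BDL replicate 3 alone in its group, with its spread assumed like that of the other groups. This array had the highest Spp1 level of its group, and without it the Spp1 interaction was 1.08 (limma adjusted p = 0.433). With Y-linked signal as a covariate the Spp1 value was 1.74 (adjusted p = 0.227).

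**Figure D4:**
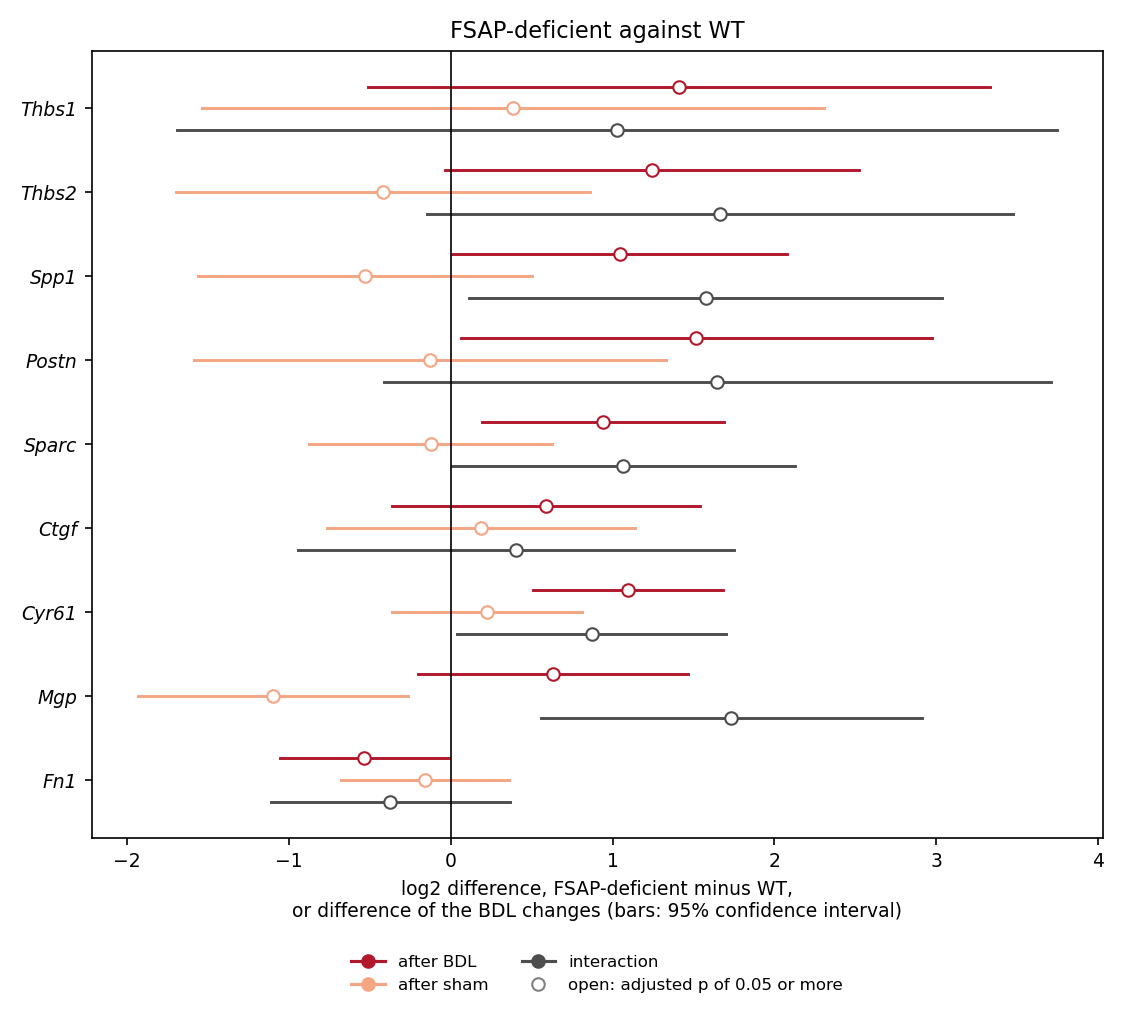
Log2 difference, FSAP-deficient minus WT, after BDL (red) and after sham (orange), and the interaction (grey, the BDL change in FSAP-deficient livers minus that in WT livers), with 95% confidence intervals from the limma model. All points are open, since none passed the test, and Cyr61 after BDL and the Mgp interaction lie farthest from 0 for their interval.

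For 8 of the 10 genes the order of the group means was FSAP-deficient BDL, then WT BDL, then the 2 sham groups, whose order varied. The share of all tested genes with this order was not counted. All 8 share the high array FSAP-deficient BDL replicate 3, so the count by itself is no pattern of genotype. The step between the BDL groups did not pass the test for any of them, nor did the step between the sham groups. The step from WT BDL to the sham groups passed in WT for Thbs1, Spp1, Sparc, Ctgf and Mgp. The exceptions to this order were Fn1 and Tnc. Fn1 was highest in WT BDL livers at 7.39 ± 0.32 and lowest in FSAP-deficient BDL livers at 6.85 ± 0.41. The Tnc means, by its first probe, lie at background but for FSAP-deficient BDL livers (-5.47 ± 2.25), where replicate 3 alone was well above background.

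Markers of the cells that can make these proteins moved with BDL too. Of 10 stellate cell and myofibroblast markers, 8 rose in FSAP-deficient livers and 3 in WT livers. Of 8 macrophage markers, 8 rose in FSAP-deficient livers and 7 in WT livers, with sums of 64.7 to 77.8 in FSAP-deficient BDL livers, 52.8 to 73.5 in WT BDL livers, 19.5 to 27.1 after sham in FSAP-deficient and 22.5 to 32.6 after sham in WT livers. Of 8 cholangiocyte markers, 5 rose and 1 fell in FSAP-deficient livers and 4 rose and 1 fell in WT livers. Epcam and Muc1 were not well above background on any sham array. Of 6 mesothelium markers, 6 rose in FSAP-deficient livers and 3 in WT livers. Of 8 hepatocyte markers, 5 fell in FSAP-deficient livers and 1 in WT livers, with sums of 1280 to 1790 in FSAP-deficient BDL livers, 1430 to 2410 in WT BDL livers, 2430 to 2620 after sham in FSAP-deficient and 2190 to 2470 after sham in WT livers. Platelets store thrombospondin-1. The sum of 6 platelet markers was 3.59, 1.45 and 23.1 in FSAP-deficient BDL livers and 1.5, 6.41 and 2.03 in WT BDL livers. It was 0.59 to 0.99 after sham in FSAP-deficient and 0.55 to 1.06 after sham in WT livers. Within each BDL group the sum had the array order of Thbs1, but this linear sum rests mostly on Pf4, the brightest marker. The median level of the 6 markers was -1.86, -3.81 and -3.73 in FSAP-deficient BDL livers, with replicate 1 highest. That order differs from Thbs1, which was highest in replicate 3. In WT BDL livers the median level was -3.42, -2.43 and -3.24, in the order of Thbs1. Of the 6 markers 2 rose in FSAP-deficient livers and 1 in WT livers, and none of the FSAP-deficient sham arrays had Itga2b, Gp9 or Gp1bb well above background. Of 7 sinusoidal endothelium markers 1 rose and 1 fell in FSAP-deficient livers, and 2 rose and 1 fell in WT livers. Of 3 smooth muscle markers, Cnn1 and Actg2 rose in FSAP-deficient livers and neither passed in WT livers, and Myh11 was too dim to be tested. On sham arrays Cnn1 averaged -5.18 in FSAP-deficient and -3.02 in WT livers and Actg2 -5.59 in FSAP-deficient and -3.59 in WT livers, well above background on 0 of 3 FSAP-deficient and 3 of 3 WT arrays. The part of these cells in the changes of the 10 genes was not tested, and no marker of these 8 lists passed between genotypes.

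Related genes, from 4 lists, gave the setting of the 10. Of 13 tested genes for other matricellular proteins (22 listed), 8 rose and 2 fell in FSAP-deficient livers and 5 rose and 0 fell in WT livers, with median log2 changes of 1.27 in FSAP-deficient and 0.83 in WT livers. Wisp2, a CCN protein that lacks the usual C-terminal domain, rose at least 59.5-fold in FSAP-deficient livers (adjusted p = 9.28e-06) and at least 41.6-fold in WT livers (adjusted p = 1.54e-05), and was not well above background on any sham array. Fstl1, a secreted relative of SPARC, rose 10.3-fold in FSAP-deficient livers and 4.89-fold in WT livers, and Smoc2, another, rose 8.12-fold in FSAP-deficient and 8.47-fold in WT livers.

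Of 19 tested receptor genes (21 listed), 12 rose and 1 fell in FSAP-deficient livers and 10 rose and 1 fell in WT livers, with median log2 changes of 0.90 in FSAP-deficient and 0.64 in WT livers. Itgb6, the beta chain of an epithelial integrin that binds fibronectin and tenascin-C and activates TGF-beta, rose at least 3.16-fold in FSAP-deficient livers and at least 2.56-fold in WT livers. Itga4, the alpha chain of leukocyte integrins that bind fibronectin and osteopontin, rose 6.01-fold in FSAP-deficient livers and 2.33-fold in WT livers, and Itga6, a laminin receptor chain, rose 4.48-fold in FSAP-deficient livers and 3.37-fold in WT livers. Itgb3, the beta chain of the platelet and vitronectin integrins, rose 2.42-fold in FSAP-deficient livers and 4.39-fold in WT livers.

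Of 13 tested fibronectin partners and cross-linkers, 6 rose and 1 fell in FSAP-deficient livers and 5 rose and 0 fell in WT livers, with medians of 0.61 in FSAP-deficient and 0.64 in WT livers. The elastic fibre proteins Fbln2 and Fbn1 rose 15.3-fold and 11.1-fold in FSAP-deficient livers, against 5.43-fold and 4.30-fold in WT livers. Fbln1, a fibronectin-binding fibulin, rose by a measured 7.99-fold in FSAP-deficient livers, with 1 of 3 sham arrays well above background, and was 1.96-fold higher in WT livers without passing (adjusted p = 0.239). Tgm2, a transglutaminase that cross-links fibronectin, rose 3.19-fold in FSAP-deficient livers and 4.86-fold in WT livers.

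Of 18 tested YAP and TEAD targets other than Ctgf and Cyr61 (20 listed), 7 rose and 1 fell in FSAP-deficient livers and 6 rose and 1 fell in WT livers, with medians of 0.49 in FSAP-deficient and 0.15 in WT livers. Ankrd1, a nuclear ankyrin repeat protein, rose at least 12.7-fold in FSAP-deficient livers and at least 6.86-fold in WT livers, and Tgfb2, a TGF-beta ligand, rose 19.0-fold in FSAP-deficient livers (1 of 3 sham arrays well above background) and 11.7-fold in WT livers. Ccdc80, a matrix protein, rose 7.51-fold in FSAP-deficient livers and 3.63-fold in WT livers, and Fjx1, a secreted Four-jointed relative, rose at least 3.39-fold in FSAP-deficient livers and at least 2.16-fold in WT livers. No gene of the 4 lists passed between genotypes or in the interaction (limma, 0 called).

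**Figure D5:**
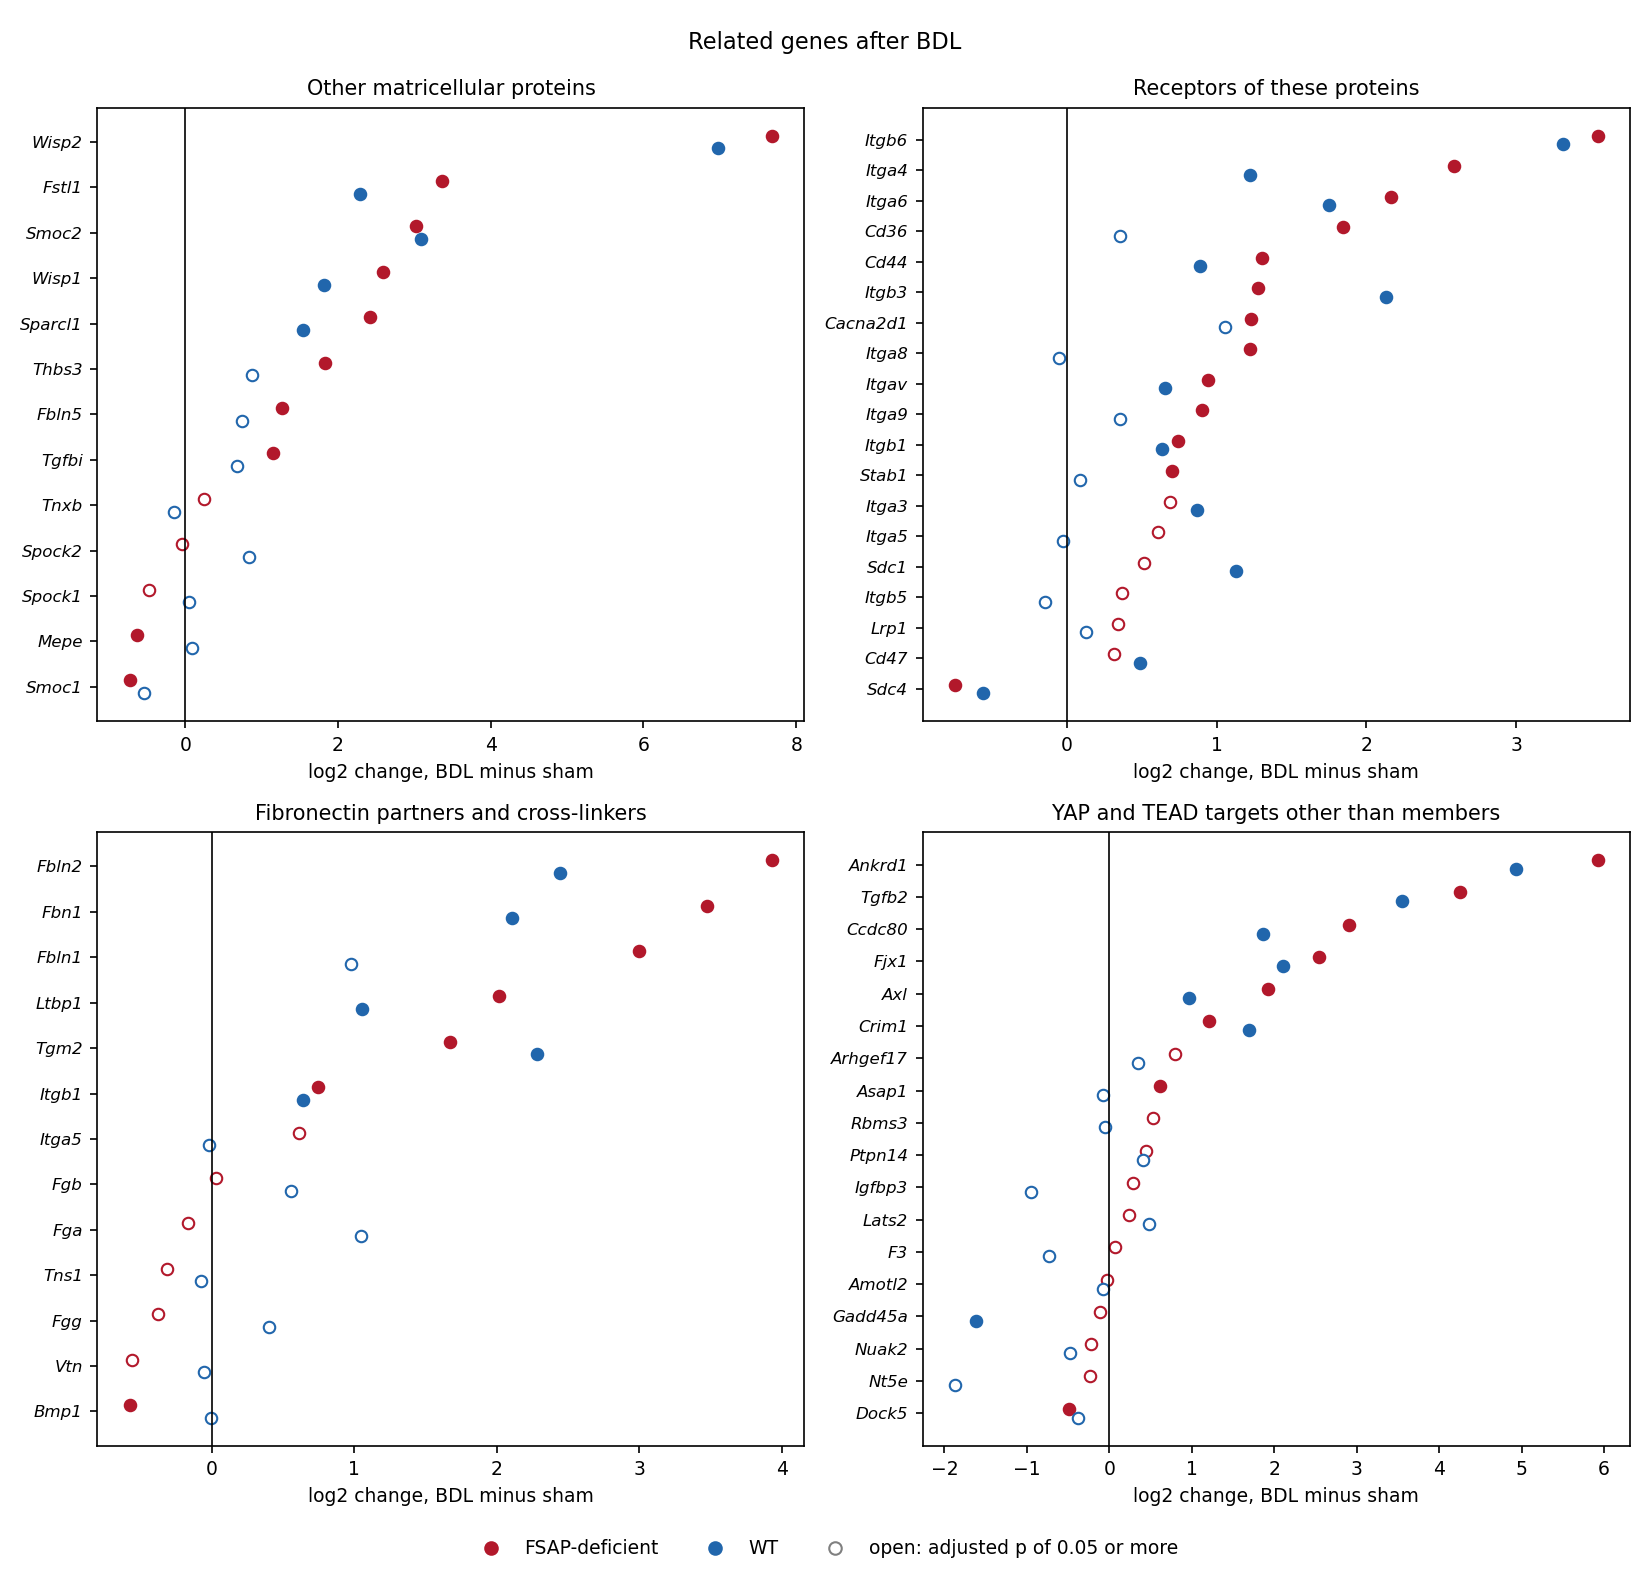
Log2 change, BDL minus sham, of the tested genes of 4 related lists in FSAP-deficient (red) and WT (blue) livers, ordered by the FSAP-deficient value, with filled points for an adjusted p below 0.05. Wisp2 and Ankrd1 lie farthest to the right, and values of genes not well above background in sham livers are measured differences rather than bounds.

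The genes whose pattern over the 12 arrays was nearest to each of the 8 that rose, by the root mean square distance of levels centred on each gene's mean, are given as a description. For Thbs1 they were the chemokine gene Ccl7 (distance 0.51, against a spread of Thbs1 itself of 2.52) and the metalloprotease gene Adam8 (0.61). For Thbs2 they were Fbn1 (0.34, against 1.42) and Cpxm1 (0.35). Spp1 was nearest to Ms4a4a (0.46, against 2.39) and the urokinase receptor gene Plaur (0.52). Postn was nearest to the collagen receptor chain Itga11 (0.39, against 1.15) and Mark1 (0.42). Sparc was nearest to Adam15 (0.23, against 1.01) and the fibulin gene Efemp2 (0.23). Ctgf was nearest to Ctla2a (0.34, against 1.46) and Nucb2 (0.37), Cyr61 to Rab3il1 (0.28, against 0.60) and B3galt4 (0.29), and Mgp to Pi16 (0.39, against 1.86) and Flrt3 (0.40). No gene was named for more than 1 of the 8, and all these distances share the step between BDL and sham arrays.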

How the data were processed

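The deposited scanner files hold spot intensity on a linear scale, written by Agilent Feature Extraction 10.5.1.1, per the file headers. The processed signal had its background subtracted and was detrended, per the file headers, with no scaling across arrays. The authors' series matrix gives log2 values per probe, which correlated with each array's scanner values above 0.99; no source used here states their normalization, and they served as an alternative. RNA was total liver RNA (integrity at least 7.2, 100 ng labelled with Cy3), per the labels' protocols.

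Spots of 1 probe were averaged after leaving out 98 to 193 outlier-marked spots per array; no spot was saturated. Of 39429 probes, 33063 carried a RefSeq accession and 26412 were named through it (GRCm38.p6). Probe positions are the files' own, on mm9; exons and untranslated regions were not analysed. The processed signal's 75th percentile was 475 to 1202. FSAP-deficient sham replicate 1 was deposited with signals rounded to 3 digits. The probe with the highest mean level stood for a gene.

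Genes with 3 or more of 12 arrays well above background were tested with limma 3.58.1 (R 4.3.3), 4 group means, 8 residual and 2.69 prior degrees of freedom, two-sided, adjusted over 19531 genes. The 5 comparisons were the effect of BDL within each genotype, the genotype difference within each surgery, and the interaction. The fit was tested on simulated data. Alternatives covered background correction, scaling, filter, probe choice, slide, replicate block, Y-linked signal and each array left out. With 3 mice per group, the number of arrays limits the precision.

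The members, lists and tests were chosen with earlier results of these data known. Named are all 10 members, up to 3 genes per related list and genotype with the largest change among those called after BDL, and the 2 nearest genes of each member that changed. Same-numbered arrays of different groups correlated at -0.202 to 0.191 in their deviations from the group means, so the numbers were not taken to pair the mice.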

Additional observations from a re-analysis of the deposited data

Results flagged for a closer look

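Mgp was marked because its genotype difference ran in opposite directions in the 2 surgeries. After BDL every FSAP-deficient array lay above the WT mean, with a difference of 0.63, and after sham every FSAP-deficient array lay below it, with a difference of -1.10. The interaction itself was tested and did not pass (1.73, SE 0.53, limma adjusted p = 0.196), and over its alternatives the adjusted p ran from 0.0566 to 0.339. Within BDL, WT replicate 3 at 2.36 lay above all 3 FSAP-deficient arrays.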

How the results depend on the processing

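Over the alternatives other than leaving out arrays, the number of the 10 genes called after BDL kept within 1.5 times of 8 in FSAP-deficient and of 5 in WT livers, except for 4 within slide 3 (Thbs2, Spp1, Sparc and Mgp, 3 BDL arrays against 1 sham array) and 3 in WT with slide as a fixed block (Spp1, Ctgf and Mgp). Within slide 1 Postn reversed to -1.16 in WT livers, where the BDL array is WT replicate 1; the cause was not tested. Asking for signal well above background on all 12 arrays left 6 calls in FSAP-deficient and 4 in WT livers, since the thrombospondins were then not tested. Between genotypes 0 of the 10 passed under any alternative. In the interaction Spp1 (2.73) was called only without the arrays with Y-linked signal, which left FSAP-deficient BDL replicate 3 alone in its group. Leaving out 1 array gave 7 to 8 calls in FSAP-deficient livers, 4 to 6 in WT livers and 0 in the other comparisons. With the replicate block the counts were 8, 5, 0, 0 and 0, and it changed no call of the 10 genes. Over all genes, the 42 calls between genotypes after BDL ranged from 2 with slide as a fixed block and 6 without a filter to 139 with normexp, and were 62 or 63 under the series matrix and median scaling, 67 under quantile normalization, 95 with an intensity trend, 11 with the replicate block, 3 with only the BDL groups, and 5 and 19 without Y-linked arrays or with that covariate, and 6 to 96 with 1 array left out. The 3 calls between sham groups were 0 to 3. The 2 interaction calls became 0 without a filter or with the replicate block, 4 with a trend, 5 with the strict filter, 0 to 22 with 1 array left out, 12 with normexp and 282 or 368 with the Y-linked settings. FSAP-deficient BDL calls, 7631 at first, were 4150 with slide as a block and 1141 within slide 3, and WT calls, 6420, were 3286 with slide as a block. Median scaling turned the split of FSAP-deficient BDL calls from 3169 higher and 4462 lower to 2613 and 6488, that of WT from 2969 and 3451 to 2254 and 4496, and moved the median change of all genes to -0.36 in FSAP-deficient and -0.19 in WT livers, and the members called were the same 8 and 5 genes. Tnc and Thbs2 are limited by signal over background.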
